A study of Mus musculus with 6 samples.

Results

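This report is about 10 chemokine genes, Ccl2, Ccl3, Ccl4, Ccl5, Ccl6, Ccl7, Ccl9, Ccl12, Cxcl2 and Cxcl16, in BV2 cells that were or were not exposed to sTREM-1. They were chosen by name as CC and CXC chemokine genes, 8 CC and 2 CXC, out of 46095 genes in the table of read counts. BV2 is an immortalized line of mouse microglia, the resident macrophages of the brain. sTREM-1 is the soluble form of triggering receptor expressed on myeloid cells 1. The CON group was BV2 cells that received no protein, and the sTREM-1 group was BV2 cells exposed for 6 h to the recombinant protein at 1 μg/mL. Both groups were grown overnight in six-well plates beforehand, no genetic change was made in either, and all wells came from 1 line. There were 3 libraries per group, numbered 1 to 3. Nothing in the labels says that they came from separate cultures, so the p-values measure the spread between these samples, which may be technical.

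Chemokines are small secreted proteins that attract leukocytes by binding G protein-coupled receptors. CC chemokines such as CCL2 and CCL7 mainly draw monocytes through CCR2, CCL3, CCL4 and CCL5 draw monocytes and T cells, and CXCL2 draws neutrophils through CXCR2. CXCL16 is made as a membrane-bound protein and binds CXCR6. Microglia make many of these ligands when they are activated, and the mRNAs of several are short-lived because AU-rich elements in the 3′ UTR bind proteins that lead to decay.

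Depth was even across libraries. Total counts ranged from 40663981 to 40779439 in CON and from 40070633 to 45877107 in sTREM-1. A count of 3 corresponded to 0.0656 to 0.0756 CPM, the count scaled to library size after TMM normalization. The label of the line was checked against markers of microglia and macrophages, of which some were abundant and others nearly absent. Csf1r, the receptor for macrophage colony-stimulating factor, averaged 521 CPM in CON and 753 CPM in sTREM-1, Cd68 605 and 589, and Itgam 385 and 398. Aif1, which encodes IBA-1, is listed at 0 in every library. How reads of overlapping genes were counted is not given, so a count at or near 0 in the table does not show that a gene was silent. The transcripts of Tmem119, P2ry12 and Cx3cr1, markers of resident microglia, each averaged under 2 CPM in both groups. The summed level of the 10 markers was 2089 to 2116 CPM in CON and 2338 to 2414 CPM in sTREM-1, with 4 of the 9 tested markers (Csf1r, Ptprc, Trem2 and Cx3cr1) called higher, by an adjusted p under 0.05 in edgeR, against 16.5% of all tested genes. Their part in the results below was not tested. Markers of T cells summed to at most 0.0235 CPM, and the lists for neurons, astrocytes and fibroblasts each to at most 0.512 CPM. The endothelial list summed to 1.86 to 2.61 CPM in CON and 1.92 to 2.49 CPM in sTREM-1. The oligodendrocyte list summed to 7.29 to 7.91 CPM in CON and 5.58 to 6.70 CPM in sTREM-1, and its part in the results below was not tested. In bulk RNA, fewer expressing cells and less mRNA per cell cannot be told apart.

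To show what the mRNAs share beyond the family name, the AU-rich stretches of the 3′ UTRs were read from GRCm38 with the GENCODE M21 annotation. The pentamer ATTTA, the core of the AU-rich element, was present in the 3′ UTR of 9 of the 10 genes, Ccl5 having 0, while 67.17% of the 10975 tested genes with an annotated 3′ UTR had at least 1. The densest 30-base window is shown for the mRNA with the most copies (Cxcl2), the most per kb (Ccl12), the highest level (Ccl3) and the falls with the smallest p (Ccl7 and Ccl2), each on its gene's strand, 5′ to 3′, with ATTTA in capitals.
Cxcl2, chr5:90905327-90905356 (+): tATTTATTTAtctatgtATTTATTTATTTA
Ccl12, chr11:82103325-82103354 (+): ATTTAaacaaacttgcttaaataatATTTA
Ccl3, chr11:83648075-83648104 (−): ttgaaattttATTTAATTTAatcctattgg
Ccl7, chr11:82047254-82047283 (+): tattaatatttttATTTAattagccatgta
Ccl2, chr11:82037205-82037234 (+): taatattaaacttATTTAacttattgatgt
Cxcl2 had 11 copies in its 3′ UTR (14.99 per kb), Ccl12 5 (29.9 per kb), Ccl3 5 (12.2 per kb), Ccl4 2 (6.62 per kb), Ccl7 2 (4.60 per kb), Ccl6 4 (4.24 per kb), Ccl2 1 (3.64 per kb), Ccl9 5 (2.03 per kb) and Cxcl16 2 (1.41 per kb). The median over the 10975 genes was 1.27 per kb, and 6.72% of them had 5 or more per kb. The longer form TATTTAT was found 7 times in Cxcl2 and 1 time each in Ccl3, Ccl4 and Ccl12, against 28.06% of those genes with at least 1. Matches of letters are a description and do not show that a protein binds there.

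RefSeq promoters (GRCm38.p6, 250 bases before to 50 after the start) were matched for 5 of the 10 genes, Ccl3, Ccl6, Ccl9, Ccl12 and Cxcl2, and not for Ccl2, Ccl4, Ccl5, Ccl7 and Cxcl16. The promoters of the 3 genes that held a TATA box or an NF-kB match are shown 5′ to 3′ on the gene's strand, with those matches in capitals.
Cxcl2, chr5:90903649-90903948 (+): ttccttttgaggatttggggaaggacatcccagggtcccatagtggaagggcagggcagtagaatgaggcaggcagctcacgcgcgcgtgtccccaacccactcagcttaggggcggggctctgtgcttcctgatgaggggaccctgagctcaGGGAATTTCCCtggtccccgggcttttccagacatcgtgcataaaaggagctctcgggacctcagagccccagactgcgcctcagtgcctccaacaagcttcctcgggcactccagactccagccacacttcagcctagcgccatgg
Ccl9, chr11:83578587-83578886 (−): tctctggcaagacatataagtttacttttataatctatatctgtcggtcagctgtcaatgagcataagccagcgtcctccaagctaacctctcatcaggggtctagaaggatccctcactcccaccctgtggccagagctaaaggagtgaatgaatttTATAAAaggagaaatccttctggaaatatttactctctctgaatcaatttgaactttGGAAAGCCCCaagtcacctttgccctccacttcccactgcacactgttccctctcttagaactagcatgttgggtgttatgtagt
Ccl12, chr11:82101595-82101894 (+): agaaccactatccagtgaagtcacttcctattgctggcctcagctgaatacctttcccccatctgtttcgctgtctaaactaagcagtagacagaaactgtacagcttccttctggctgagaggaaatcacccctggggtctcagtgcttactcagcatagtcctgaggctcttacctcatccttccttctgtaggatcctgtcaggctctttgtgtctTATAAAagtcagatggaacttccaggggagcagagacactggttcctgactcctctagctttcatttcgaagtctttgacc
The Cxcl2 promoter held a pair of overlapping NF-kB matches whose first bases lay at -97 and -96 from the start site (position 0), and the Ccl9 promoter held 1 at -35. TATAAA, searched on the gene's strand, lay at -92 in Ccl9 and at -31 in Ccl12. NF-kB matches, on either strand, were found in 8.46% and TATAAA in 8.32% of all 32851 RefSeq promoters of this length. On either strand, GAGGAA, the core that PU.1 binds, was found in Ccl3, Ccl12 and Cxcl2 (28.28% of all promoters), AANNGAAA, an interferon regulatory factor (IRF) half-site, in Ccl3 and Ccl12 (23.92%), and TGANTCA, an AP-1 site, in Ccl9 (7.81%). None of these letters was found in the window of Ccl6.

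Of the 10 chemokine genes, 7 were lower after sTREM-1 and 0 were higher. The 7 were Ccl7, Ccl12, Ccl2, Ccl9, Ccl3, Ccl6 and Cxcl2. Ccl4 and Ccl5 did not pass the test, and Cxcl16 had too few counts to be tested. A gene was called when its adjusted p in edgeR's quasi-likelihood test was under 0.05. DESeq2 and limma-voom called the same 7, and at an unadjusted p under 0.05 in edgeR 8 passed, Ccl4 being the higher one. Among all 14120 genes tested, 30.5% were called in either direction, 14.1% lower and 16.5% higher. The groups did not overlap for 8 of the 9 tested chemokines, 7 with the sTREM-1 libraries lower and Ccl4 with them higher, against 40.7% of all tested genes. The median log2 fold change (sTREM-1 over CON) was -0.30 over the 9 tested chemokines and 0.00 over all genes (-0.0017). Since Cxcl16 was too low to enter, these counts cover 9 genes and not all 10. Ccl7 was the 1 chemokine with a fall of at least 1.5-fold.

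**Figure D1:**
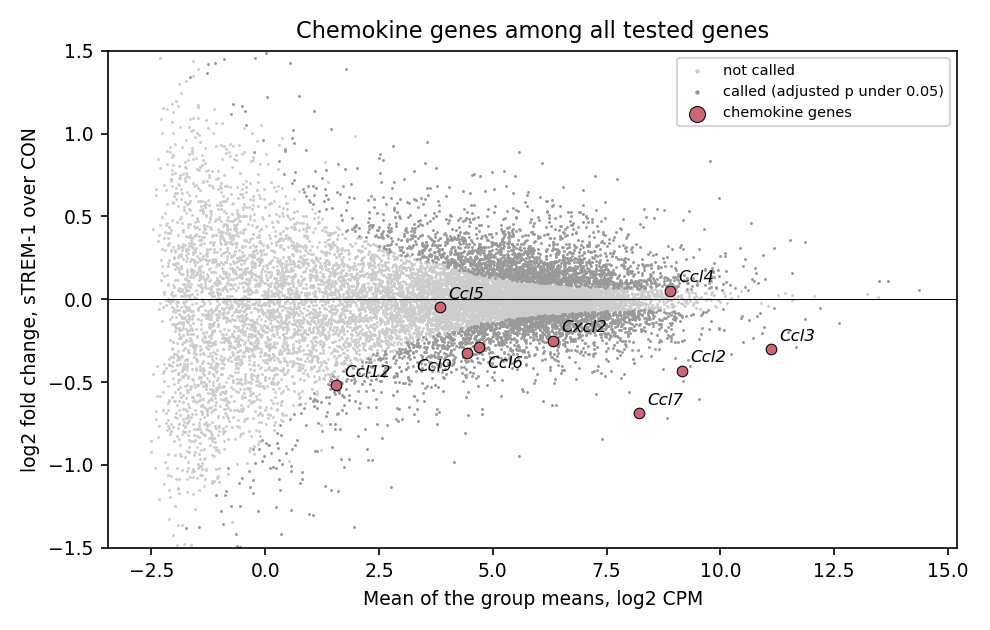
Each point is 1 of the 14120 tested genes, with its mean level (log2 CPM) on the x axis and its log2 fold change, sTREM-1 over CON, on the y axis. Called genes are darker grey, the 9 tested chemokines are the large labelled points, and 48 genes beyond ±1.5 are not drawn. Ccl7, Ccl2 and Ccl3 lie at high expression and below most genes of like level, and Ccl4 and Ccl5 lie near 0.

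The summed level of the 10 genes was 4184, 4035 and 4114 CPM in the CON libraries and 3302, 3267 and 3420 CPM in the sTREM-1 libraries. The means were 4111 ± 74.3 and 3329 ± 80.3 CPM (SD, n = 3), 19.0% lower after sTREM-1. Ccl3 contributed the most reads to this sum. CPM of different genes cannot be ranked because longer mRNAs give more reads, so levels between genes are given below per kb of transcript.

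Per kb, Ccl3 stood highest in both groups, with a level of 3215 ± 61.5 CPM per kb in CON and 2607 ± 93.1 in sTREM-1 (SD, n = 3). In CON it was followed by Ccl2 (804 CPM per kb), Ccl4 (712), Ccl7 (459), Cxcl2 (78.7), Ccl5 (27.3), Ccl6 (19.9), Ccl9 (7.94), Ccl12 (6.41) and Cxcl16 (0.0211). In sTREM-1 the order was the same except that Ccl4 (738 CPM per kb) stood above Ccl2 (596). No neighbours in either order had overlapping library values per kb. Non-overlap does not cover an error in transcript length, which all libraries share. The lengths are those of GENCODE M21 (813 bases for Ccl2, 660 for Ccl4), and the annotation behind the counts is not given. In CPM, the sTREM-1 libraries of Ccl2 (468, 493 and 492) and Ccl4 (491, 478 and 492) overlapped. Ccl2 ranged from 786 to 831 CPM per kb in CON, above the 703 to 719 of Ccl4, and from 576 to 607 in sTREM-1, below the 724 to 746 of Ccl4.

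**Figure D2:**
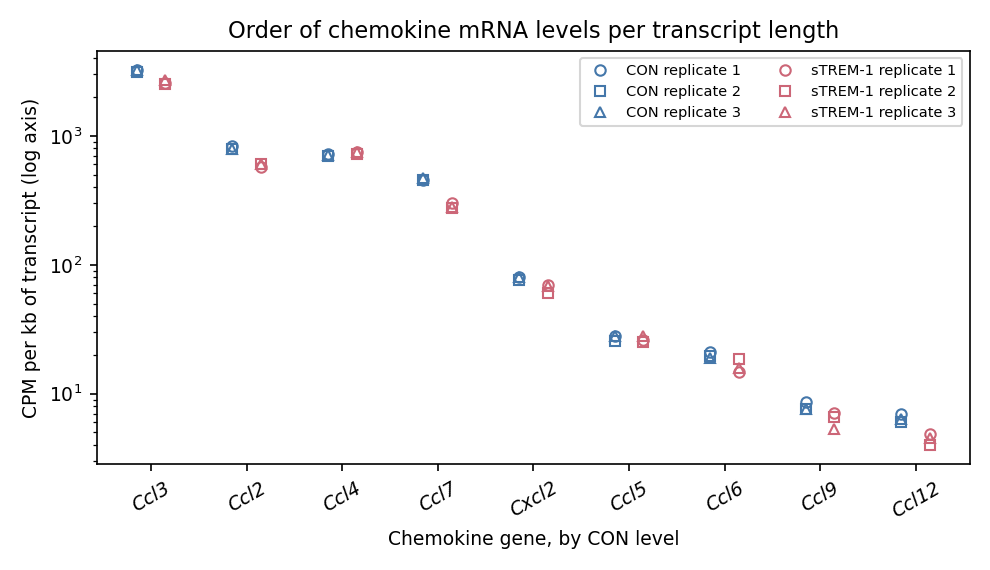
Level of each tested chemokine in CPM per kb of transcript (log axis), 1 symbol per library, CON in blue and sTREM-1 in red, ordered by the CON level. Ccl3 lies above all others in every library. At the GENCODE M21 lengths used, Ccl4 lies below Ccl2 in CON and above it in sTREM-1.

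The ligands of CCR2, Ccl2, Ccl7 and Ccl12, showed the 3 largest falls. Ccl7, which encodes monocyte chemoattractant protein 3, measured 365, 362 and 376 CPM in CON and 240, 220 and 225 CPM in sTREM-1. All 3 sTREM-1 libraries lay far below all 3 CON libraries. The means were 368 ± 7.31 and 228 ± 10.3 CPM (SD, n = 3), a log2 fold change of -0.69 (SE 0.028, adjusted p = 1.31e-17) or 0.621 of the CON level. Among all tested genes, 6 had a smaller p and 2.68% a lower log2 fold change.

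Ccl2, which encodes monocyte chemoattractant protein 1 and whose 3′ UTR window is printed above, measured 676, 646 and 639 CPM in CON and 468, 493 and 492 CPM in sTREM-1. The groups did not overlap, the lowest CON library standing above the highest sTREM-1 library by 22.3% of the CON mean. The means were 653 ± 19.6 and 485 ± 14.1 CPM, a log2 fold change of -0.43 (SE 0.025, adjusted p = 2.68e-14) or 0.741 of the CON level. Another gene, Gm17268, overlaps Ccl2 in the annotation and was not among the tested genes. How reads of overlapping genes were counted is not given, so reads of the pair cannot be told apart.

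Ccl12, monocyte chemoattractant protein 5 in mouse, was the lowest of the tested chemokines, with 3.71, 3.22 and 3.405 CPM in CON and 2.63, 2.13 and 2.44 CPM in sTREM-1. These values rest on 152, 132 and 139 counts and on 120, 91 and 97 counts. The groups did not overlap, but the error was the widest of the 9 genes, with a log2 fold change of -0.52 (SE 0.17, 95% interval -0.88 to -0.16, adjusted p = 0.0227). The call was lost without CON replicate 1 (log2 fold change -0.46, adjusted p = 0.0825) and without sTREM-1 replicate 2 (-0.44, adjusted p = 0.0964).

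Ccl3, Ccl4 and Ccl5, inflammatory ligands that draw monocytes and T cells, differed in their calls. Ccl3, macrophage inflammatory protein 1 alpha, measured 2505, 2412 and 2471 CPM in CON and 1967, 1946 and 2079 CPM in sTREM-1. The lowest CON library was well above the highest sTREM-1 library. The means were 2462 ± 47.1 and 1997 ± 71.3 CPM, a log2 fold change of -0.30 (SE 0.021, adjusted p = 2.06e-12) or 0.811 of the CON level.

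Ccl4, macrophage inflammatory protein 1 beta, measured 475, 464 and 471 CPM in CON and 491, 478 and 492 CPM in sTREM-1. The sTREM-1 libraries all lay above the CON libraries, with a gap of 0.66% of the CON mean. The log2 fold change was 0.05 (SE 0.023, 95% interval 0.01 to 0.10) with an adjusted p of 0.0877, so Ccl4 was not called. Ccl5, known as RANTES, measured 14.9, 13.7 and 14.99 CPM in CON and 13.8, 13.4 and 14.995 CPM in sTREM-1. Its groups overlapped, and its log2 fold change was -0.05 (95% interval -0.21 to 0.12, adjusted p = 0.718), so that a fall of the size of that of Ccl3 lay outside the interval.

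Ccl3 and Ccl4 have the most similar coding sequences of the 10 genes (68.09% identity), and their ratio was set against that of the next most similar pairs. The ratio of Ccl3 to Ccl4 was 5.28, 5.20 and 5.24 in the CON libraries and 4.002, 4.07 and 4.22 in the sTREM-1 libraries. It was lower in all 3 sTREM-1 libraries, with means of 5.24 ± 0.0405 and 4.10 ± 0.114 (SD, n = 3). In a two-sided exact permutation test over samples p was 0.1, the smallest that 3 against 3 libraries allow, and 0.3 after adjustment over the 3 pairs. The ratio of Ccl7 to Ccl12 (63.92% identity) averaged 107 ± 7.53 in CON and 95.4 ± 6.62 in sTREM-1, and the groups overlapped (exact permutation p = 0.2). The ratio of Ccl6 to Ccl9 (66.4% identity) averaged 1.201 ± 0.0233 and 1.25 ± 0.220, and the groups overlapped (exact permutation p = 1.0). In the share of the summed per-kb level of the 10 genes, Ccl4 went from 13.3–13.4% in CON to 16.7–17.3% in sTREM-1, Ccl7 from 8.4–8.8% to 6.3–6.9%, and Ccl2 from 14.7–15.3% to 13.4–14.2%. The RefSeq spans of Ccl3 and Ccl4 overlap by 755 bases on opposite strands, and those of GENCODE do not.

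Ccl6 and Ccl9, which encode rodent CC chemokines that bind CCR1, also fell. Ccl6 measured 30.4, 28.1 and 27.4 CPM in CON and 21.2, 26.6 and 22.7 CPM in sTREM-1, a log2 fold change of -0.29 (SE 0.069, adjusted p = 0.00175). The groups did not overlap, although sTREM-1 replicate 2 lay close to the lowest CON library. Ccl9 measured 25.9, 23.1 and 22.7 CPM in CON and 21.2, 19.8 and 16.1 CPM in sTREM-1, a log2 fold change of -0.32 (SE 0.079, adjusted p = 0.00217). Its sTREM-1 libraries were again all below the CON libraries, with replicate 3 the lowest. Of the 50-base stretches of the Ccl9 transcript, 1.995% are also found, on either strand, in transcripts of 463 other genes. Ccl6 overlaps another annotated gene, E230016K23Rik, so its reads could be shared. As counted, E230016K23Rik averaged 1.07 CPM in CON and 1.10 CPM in sTREM-1 (log2 fold change 0.05, adjusted p = 0.931 in edgeR).

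Of the CXC genes, Cxcl2, macrophage inflammatory protein 2, measured 89.0, 84.1 and 88.7 CPM in CON and 76.7, 67.5 and 75.9 CPM in sTREM-1. The groups did not overlap. The means were 87.3 ± 2.78 and 73.3 ± 5.08 CPM, a log2 fold change of -0.25 (SE 0.042, adjusted p = 2.08e-05) or 0.841 of the CON level. Of the 50-base stretches of its transcript, 5.76% are also found in Cxcl3, which had at most 6 counts in any library. Cxcl16 had 0, 4 and 3 counts in CON and 2, 2 and 3 counts in sTREM-1, 7 in each group, and no fold is given; as for Aif1, this does not show that the gene was silent. It shares 20.0% of its 50-base stretches with the overlapping gene Zmynd15, which had at most 2 counts in any library.

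**Figure D3:**
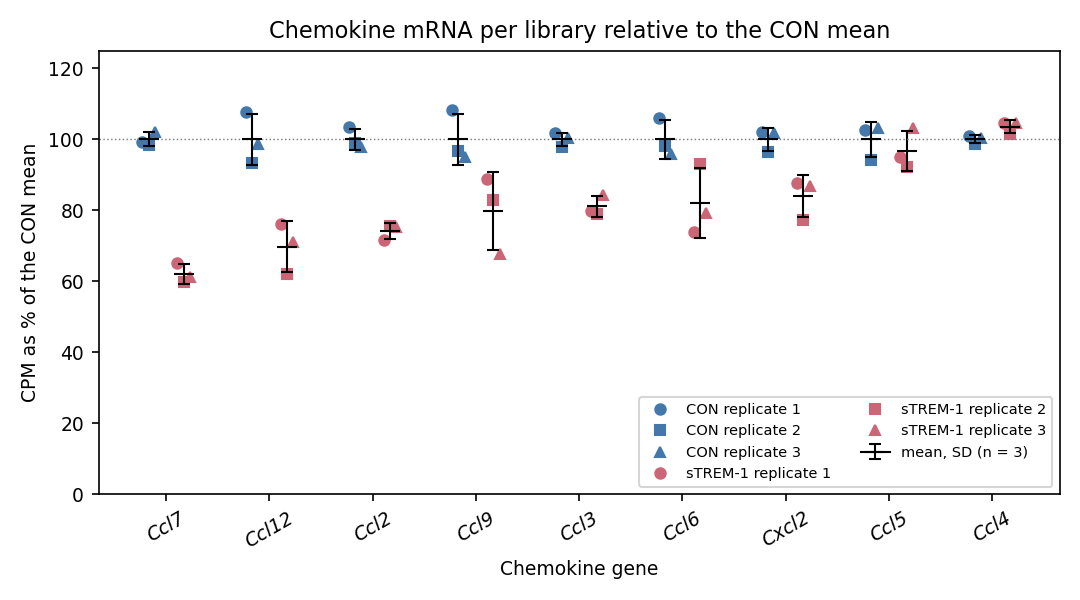
CPM of each tested chemokine as a percentage of its CON mean, 1 symbol per library, with bars at the mean ± SD (n = 3). The genes are ordered by fold change from Ccl7, whose sTREM-1 mean lies lowest, to Ccl4, whose sTREM-1 libraries lie just above the CON mean.

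All 8 CC genes lie in the mouse CC chemokine clusters of chromosome 11, so the changes were set out by position (GRCm38, GENCODE M21). Ccl2 (chr11:82035571-82037453), Ccl7 (chr11:82045712-82047525) and Ccl12 (chr11:82101845-82103400) span 67.8 kb on the plus strand, and all 3 fell, with log2 fold changes of -0.69 to -0.43. Farther along by 1422 kb, Ccl5 (chr11:83525778-83530518), Ccl9 (chr11:83572919-83578636), Ccl6 (chr11:83587882-83593087), Ccl3 (chr11:83647844-83649355) and Ccl4 (chr11:83662584-83664683) span 138.9 kb. Of these 5 genes 3 fell, with log2 fold changes over the group of -0.32 to 0.05. The genes at the ends of the second group, Ccl5 and Ccl4, were not called. Cxcl16 lies elsewhere on the same chromosome (chr11:70453983-70459984, minus strand), and Cxcl2 on chromosome 5 (chr5:90903871-90905938, plus strand). Among the other genes tested within 200 kb of these 8 CC genes, 2 of 7 were lower and the other 5 were not called, while 14.1% of all tested genes were lower and 30.5% were called in either direction. These were Taf15, an RNA-binding protein gene (log2 fold change -0.11, adjusted p = 0.000818), and Ap2b1, a clathrin adaptor gene (-0.08, adjusted p = 0.00893), and both were named after their values were seen.

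**Figure D4:**
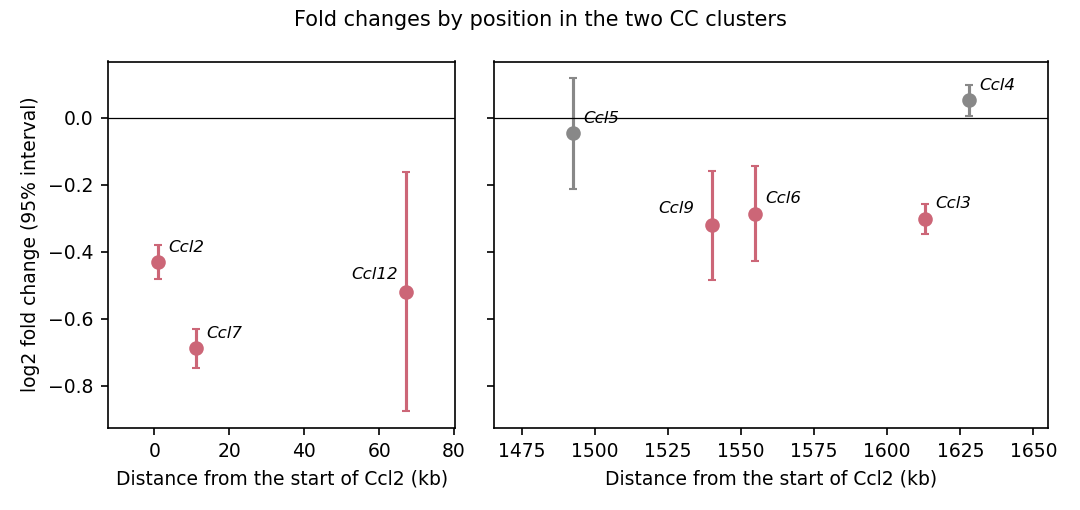
Log2 fold change with its 95% interval for the 8 CC genes, by the distance of each gene's midpoint from the start of Ccl2 in kb, with a break in the x axis between the panels. Red points were called and grey points were not. The 3 genes of the left panel lie lowest, and Ccl5 and Ccl4 lie near 0 at both ends of the right panel.

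The profile nearest to that of Ccl7 over the 6 libraries, by root-mean-square distance of centred log2 CPM among 9046 genes, was that of Dok7, an adaptor of the muscle receptor kinase MuSK (distance 0.037, log2 fold change -0.70). It was followed by Odc1, ornithine decarboxylase of polyamine synthesis (0.0468, log2 fold change -0.71), and Hgsnat, a lysosomal acetyltransferase (0.0482, log2 fold change -0.64). No chemokine was called higher, so no such search was made for a rise.

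Of 31 other chemokine ligands 15 had 0 counts in every library and 4 could be tested, with 1 lower (25.0%, against 30.5% of all tested genes called in either direction) and -0.29 as their median log2 fold change. The lower one was Cxcl14, a CXC chemokine, at 10.8 ± 1.68 CPM in CON and 7.69 ± 0.311 in sTREM-1 (log2 fold change -0.49, SE 0.11, adjusted p = 0.000486). The other 3, Ccl25, Cxcl10 and Pf4, did not pass and are named because they are so few. At an unadjusted p under 0.05 Ccl25 would also have passed, lower. The median of the 4 lay between Ccl25 (-0.22) and Pf4 (-0.36, SE 0.53), neither of which was called. Pf4 had only 8 to 24 counts per library, and its log2 fold change was 0.27 without CON replicate 3. Cxcl10, an interferon-induced ligand, stood highest of the 4 in counts, with 1510, 1543 and 1658 in CON and 1786, 1677 and 1576 in sTREM-1, a log2 fold change of 0.04 (adjusted p = 0.617).

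Of the 23 chemokine receptors reported here 6 could be tested. Of these 2 were higher and the other 4 were not called (33.3% called, near the 30.5% of all tested genes). The median log2 fold change of the 6 was 0.15, between Cxcr3 (-0.15) and Cxcr4 (0.45). The 4 not called, named because they are so few, were Ccr1 (-0.23), Ccrl2 (-0.19), Cxcr3 and Ccr10 (0.87). Ccr10 had only 7 to 37 counts per library. Cxcr4, the receptor for CXCL12, was higher by 0.45 (SE 0.13, adjusted p = 0.0108), and Cx3cr1, the fractalkine receptor, by 0.90 (SE 0.28, adjusted p = 0.0156) from 0.945 to 1.77 CPM. Cx3cr1 had only 33 to 93 counts per library. Cxcr4 lost its call without CON replicate 1 (adjusted p = 0.0678) or sTREM-1 replicate 1 (0.0982), and Cx3cr1 without CON replicate 1 (0.0655), sTREM-1 replicate 2 (0.116) or sTREM-1 replicate 3 (0.0570). Ccr2, the receptor for CCL2, CCL7 and CCL12, was looked up after these values were seen and was not tested, with 4, 3 and 0 counts in CON and 1, 8 and 14 counts in sTREM-1.

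**Figure D5:**
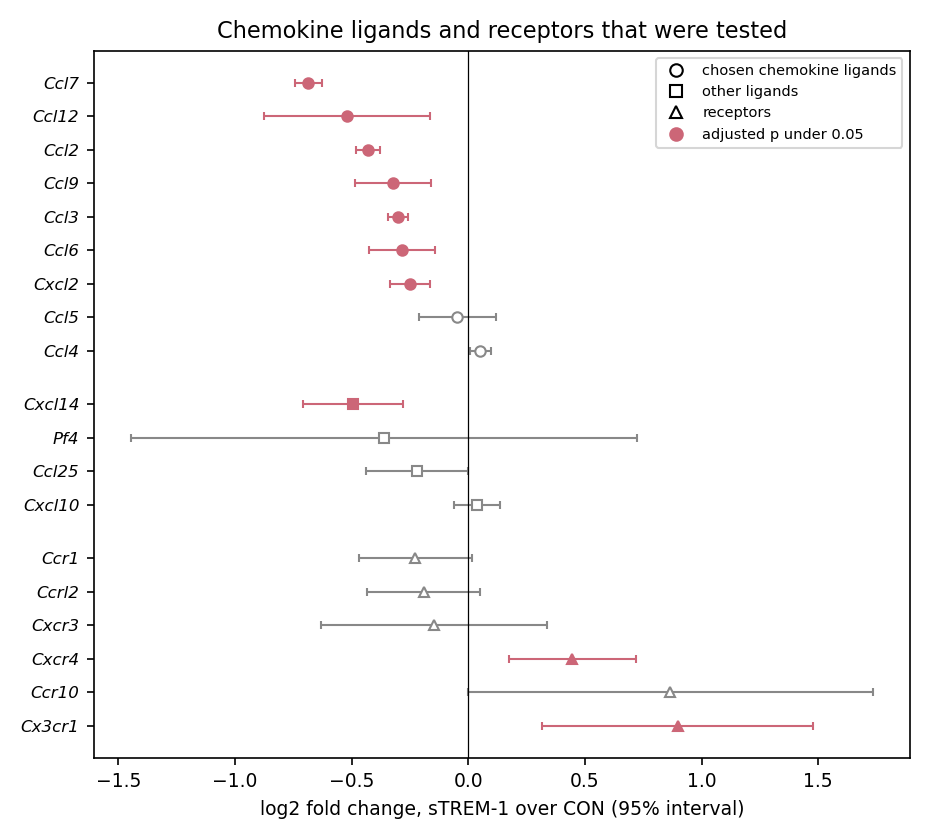
Log2 fold change, sTREM-1 over CON, with its 95% interval for each tested chemokine ligand and receptor. Filled red symbols were called, and the upper 9 genes are the chosen chemokines, followed by the other ligands and the receptors. The 7 called chemokines and Cxcl14 lie left of 0, and Cxcr4 and Cx3cr1 lie right of it.

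All 37 genes of the chemokine receptor signalling list were tested, and 10 were higher and 12 lower (59.5% called, against 16.5% higher and 14.1% lower among all tested genes), and their log2 fold changes had a median of 0.01. The higher genes included Arrb1 (beta-arrestin 1, log2 fold change 0.58, adjusted p = 4.96e-16), Pik3cg (0.32) and Pik3r5 (0.29), the catalytic and a regulatory subunit of PI3K gamma, Ptk2b (0.28), the kinase PYK2, and Gnai2 (0.22), an inhibitory G protein alpha subunit. The lower genes included Rgs2 (-0.42, adjusted p = 2.38e-14) and Rgs1 (-0.31), which shorten G protein signals, Gnai3 (-0.26), Gng5 (-0.24), a G protein gamma subunit, and Lyn (-0.21), a Src family kinase. The Gnai genes moved in opposite directions.

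All 15 genes of the mRNA decay list were tested, and 7 were higher and 3 lower (66.7% called, against 16.5% higher and 14.1% lower among all tested genes), and their log2 fold changes had a median of 0.11. Higher were Zfp36l1 (0.24), Mapkapk2 (0.16), Zc3h12c (0.16), Zfp36 (0.15) and Hnrnpd (0.11) among others. Zfp36 encodes tristetraprolin, which binds AU-rich elements and promotes decay, and Mapkapk2 encodes a kinase that inhibits it. Lower were Zc3h12a (-0.19), the endonuclease Regnase-1, Tia1 (-0.12) and Zfp36l2 (-0.09). Without CON replicate 1 the calls of Hnrnpd (adjusted p = 0.126), Zc3h12a (0.0758) and Zfp36l2 (0.0991) were lost. Hnrnpd also lost its call without CON replicate 3 (0.0506) or sTREM-1 replicate 1 (0.0689), Zfp36l2 without sTREM-1 replicate 2 (0.0543), and Tia1 without CON replicate 2 (0.184), sTREM-1 replicate 2 (0.0735) or sTREM-1 replicate 3 (0.0832). The count of called decay genes was 5 without CON replicate 1 and 6 without sTREM-1 replicate 2.

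Of the 17 genes of the shedding and cleavage list, whose products release or trim chemokines, 14 could be tested, with 6 higher, 3 lower (64.3% called, against 30.5% of all tested genes) and 0.04 as their median log2 fold change. Higher were Ctsc (0.31), a dipeptidyl peptidase, Adam17 (0.29), which sheds membrane-bound ligands, Ctss (0.19), Adam9 (0.16) and Adam8 (0.12), among others. Lower were Mmp9 (-0.20), Ctsd (-0.15) and Ctsb (-0.05). Ctsb lost its call in 4 of 13 alternatives, with an adjusted p of 0.151 without CON replicate 1, 0.0934 without sTREM-1 replicate 1, 0.0941 without sTREM-1 replicate 2 and 0.0763 with no filter on low counts.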

How the data were processed

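RNA of BV2 cells was sequenced in 6 libraries, 3 in each group per the labels. The study's methods give another number of samples. The authors deposited whole-number read counts per gene symbol for 46095 genes. The submitters' processing notes name HISAT2 2.0.4 and the human builds hg19 and GRCh38, although the organism and symbols are those of mouse. The study's methods name FastQC, RSEM and edgeR. The mouse build, annotation and strand setting behind the counts are not given in the sources used here.

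Genes passing filterByExpr (minimum count 10) were tested with edgeR 4.0.16 in R 4.3.3 using TMM scaling and the quasi-likelihood test. P-values were adjusted by the Benjamini-Hochberg method over all 14120 genes tested, with a threshold of 0.05. CPM are counts scaled to library size after TMM. CPM per kb were divided by the length of the GENCODE M21 principal transcript. The symbols of 41483 of the 46095 genes were present in RefSeq GRCm38.p6. DESeq2 1.42.0, limma 3.58.1 (voom), other scaling and filters, a replicate block and fits leaving out each library were the alternatives. A fit scaled without the 10 chemokine genes was added after seeing the data. The test was checked on simulated data with 200 changed genes, while 4312 genes were called in the real data. It recovered 59.18% of changes of 1.2-fold and 77.16% of changes of 1.5-fold. Of the calls, 5.69% and 6.75% were false.

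The chemokine genes and gene lists were chosen with earlier results of these data known. Named genes were the 10 chemokines, up to 5 of smallest p in each direction from each other list, the microglial markers and the 3 profiles nearest to the largest fall. Genes named outside this rule are said to be so. A gene of the receptor list is not reported here, and the list's counts leave it out.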

Additional observations from a re-analysis of the deposited data

How the results depend on the processing

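Each of the 9 tested chemokine genes kept its direction in all 13 alternatives, and all but Ccl12 kept their side of the threshold. The 7 chemokine calls became 6 without CON replicate 1 and without sTREM-1 replicate 2, and the leave-one-out range was 6 to 7. With a fold of at least 1.5 required, 301 of the 4312 genes changed after sTREM-1 remained (130 higher and 171 lower). They held 1 chemokine (Ccl7), 0 other ligands, 1 receptor (Cx3cr1), and 0 genes each of the signalling, mRNA decay and shedding lists. Arrb1 of the signalling list fell just short of this threshold, its fold being 1.5 after rounding. At an unadjusted p under 0.05, 2 other ligands and 8 chemokines passed, the added chemokine being Ccl4, which was higher. Leaving out single libraries gave 0 to 2 receptors and 5 to 9 decay genes. The receptor count was 0 without CON replicate 1 and 1 without each sTREM-1 replicate, and the decay count was 5 without CON replicate 1 and 6 without sTREM-1 replicate 2. The labels do not say whether the replicate numbers pair the samples. No effect shared by number was seen, the deviations of same-numbered libraries having correlations of -0.0335 to -0.0137. The fit with the replicate block called 4613 genes (2474 higher, 2139 lower) and the same 7 chemokines. DESeq2 called 4007 genes and limma-voom 4257. Cxcl16, with 7 counts in each group, was not tested under the filter.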
